A study of Mus musculus with 3 samples.

Results

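The 10 genes described belong to leukaemia inhibitory factor (LIF) receptor, Janus kinase and Stat3 signalling. They are the ligand Lif, the receptor chains Lifr, Il6st and Osmr, and the Janus kinases Jak1, Jak2, Jak3 and Tyk2. The others are the transcription factor Stat3 and Socs3, its feedback inhibitor. Osmr and Jak3 are known mainly from other receptors, as given below. The genes were chosen by name as 1 signalling group, with earlier results of these data known. They make up 10 of the 18193 genes that the array's annotation names. Every probe set annotated with 1 of these symbols alone was used, 27 of 34945 such probe sets. A further 2 probe sets are annotated with Jak3 together with another gene and were left out.

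F9 is a mouse embryonal carcinoma line, the stem cell line of a teratocarcinoma, which remains undifferentiated under ordinary culture and can be driven into endoderm. All 3 samples were labelled as the F9 embryonal carcinoma cell line, with no treatment or genetic change given in the labels. They were numbered as replicates 1, 2 and 3 and formed 1 group. Per the labels' protocols they were cultured on plastic coated with 0.2% gelatin in DMEM with 10% fetal calf serum, and taken at about 80% confluence; added LIF or feeder cells are not mentioned. Total RNA from each sample was read on 1 Affymetrix Mouse Genome 430 2.0 array. No other cell state was measured, so each gene was compared with the background of the array and with its own other probe sets.

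As background, LIF binds the Lifr chain, which pairs with gp130, the product of Il6st, the signal-transducing chain shared by the interleukin-6 cytokine family. Janus kinases bound to the receptor tails phosphorylate each other and the receptor, Stat3 docks there, is phosphorylated and enters the nucleus. Mouse embryonic stem cells rely on this route for self-renewal in serum, whereas embryonal carcinoma lines such as F9 are commonly grown without added LIF. Messenger RNA shows which parts can be made, and does not show whether Stat3 is phosphorylated.

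The results turn on Lifr, whose probe sets gave unlike readings, and on Socs3, the target that reads out Stat3 activity in many cells. RefSeq promoter windows (GRCm38.p6), which run from 250 bases before to 50 bases after an annotated start, were found for all 10 genes, 11 windows in all. Lifr was the member with 2 of them, lying on the plus strand of chromosome 15. They are shown because they differ in composition: the full windows held 81.3% and 53.3% G and C. Socs3, on the minus strand of chromosome 11, is shown because it held the single match among the 11 windows to TTCNNNGAA, the general STAT core, printed in capitals. The 250 bases before each start, 5′ to 3′ on the gene's strand, read as follows.

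Lifr, chr15:7129322-7129571: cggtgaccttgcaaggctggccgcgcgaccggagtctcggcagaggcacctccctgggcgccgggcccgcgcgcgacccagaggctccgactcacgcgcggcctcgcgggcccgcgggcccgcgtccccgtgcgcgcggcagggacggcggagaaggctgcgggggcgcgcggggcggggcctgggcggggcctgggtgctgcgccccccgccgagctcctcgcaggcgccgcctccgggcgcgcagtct

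Lifr, chr15:7140292-7140541: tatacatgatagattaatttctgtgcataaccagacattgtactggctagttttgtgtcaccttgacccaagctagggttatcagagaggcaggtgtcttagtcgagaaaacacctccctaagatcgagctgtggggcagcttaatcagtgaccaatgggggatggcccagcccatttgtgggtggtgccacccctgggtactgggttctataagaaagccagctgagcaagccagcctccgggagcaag

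Socs3, chr11:117969367-117969616: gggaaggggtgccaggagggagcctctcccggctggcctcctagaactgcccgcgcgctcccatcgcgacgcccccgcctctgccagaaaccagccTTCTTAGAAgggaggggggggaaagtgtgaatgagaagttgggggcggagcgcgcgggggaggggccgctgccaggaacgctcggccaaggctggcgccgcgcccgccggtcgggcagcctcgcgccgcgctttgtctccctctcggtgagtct

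The match in Socs3 was TTCTTAGAA, beginning 154 bases before the annotated start that its window is built on. In the same build the annotated Socs3 gene reaches position 117970336 and Lifr begins at 7090610. Both positions lie upstream of the windows shown, which do not cover the outermost 5′ ends of these genes. The core reads the same on both strands, and 8.3% of all 32851 windows held it. The stricter form TTCCNGGAA, which is contained in the general core, occurred in 1.15% of windows and in 0 of the members' 11. These matches are letters in a window and were not tested as binding sites, and the arrays do not separate transcripts by their start.

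Of the 10 genes, 8 were above background and 2, Lif and Osmr, were not. A gene was read by its probe set with the highest mean signal, and it was called above background when log2 signal exceeded the array's threshold by limma's moderated test (one-sided, Benjamini-Hochberg adjusted p under 0.05 over all probe sets). By the same rule 51.1% of 18078 named genes outside the background families were called. The threshold, the 95th percentile of probe sets for sensory receptor genes (smell, pheromone, taste) and keratin-associated proteins of hair, families used mainly in sense organs and hair, lay at a signal of 44.4, 46.0 and 43.1 on replicates 1, 2 and 3. The members' median was 1.77 log2 units over the threshold, beside 0.72 for all named genes. A gene with more probe sets has more chances of a bright one, which raises the members' gene count and median. Of the 10 members 9 had several probe sets, beside 8998 of the 18078 named genes. Per probe set the medians were 0.69 for the members and 0.17 for all named probe sets. Of the 27 probe sets, 14 were called, beside 45.3% of named probe sets in general, and the gene count depends on taking the brightest probe set. It was 4 when the probe set was preferred by suffix (plain _at first, then _a_at, _s_at and _x_at, the lowest ID first). With the median over a gene's probe sets it was 5, and when every probe set had to pass it was 3. Under these rules 7841, 7895 and 5662 of all named genes were called, beside 9240 by the brightest probe set.

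**Figure D1:**
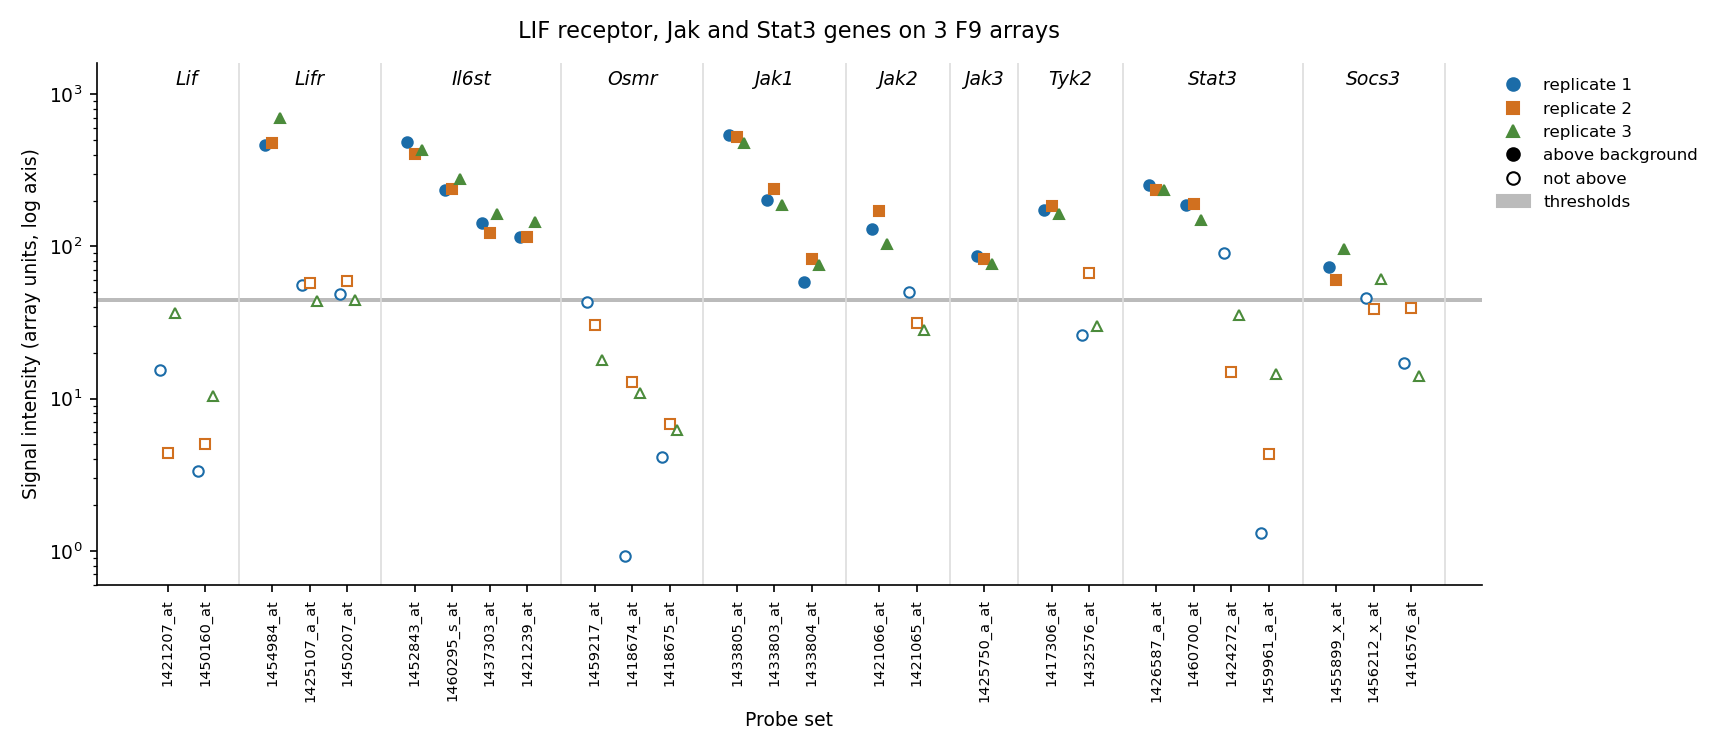
Signal intensity (log axis) of all 27 probe sets of the 10 genes, with 1 point per array; filled points belong to probe sets above background, open points to the rest, and the grey band spans the 3 arrays' thresholds (43.1 to 46.0). Il6st, Jak1 and Jak3 lie over the band with every probe set, Lif and Osmr under it with every probe set, and the other genes have probe sets on both sides or close to it.

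The ligand was not detected by either of its probe sets. Lif probe set 1421207_at gave 15.5, 4.42 and 36.3 on replicates 1, 2 and 3, and 1450160_at gave 3.37, 5.01 and 10.4. All 6 readings lay under the threshold of their array, and 0 of the 2 probe sets had an unadjusted limma p under 0.05. The brighter set averaged -1.71 log2 units relative to the threshold (SE 0.72, n = 3), with an 8.21-fold range between arrays, so its level is a bound and no estimate. In RNA from whole cultures, expression in few cells and low expression in all cells cannot be told apart, here or below.

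Lifr, the chain that binds LIF, was above background on 1 of its 3 probe sets. Probe set 1454984_at read 465, 479 and 699, a mean of 548 ± 131 (SD, n = 3) and 3.60 log2 units over the threshold (SE 0.20; limma adjusted p = 0.000487). Every array lay far over its threshold, and replicate 3 stood 0.59 log2 units higher than replicate 1. Probe set 1425107_a_at, whose suffix marks probes shared by several transcripts of 1 gene, read 55.7, 57.7 and 43.6, and 1450207_at read 49.0, 59.7 and 44.2. Read by the set preferred by suffix, Lifr is this last one. The dim sets sat just over the threshold on all 3 arrays, by 0.22 (SE 0.13; limma adjusted p = 0.225) and 0.18 log2 units (SE 0.13; adjusted p = 0.300), and did not pass.

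The difference among the Lifr probe sets was larger than the spread between arrays. Within each array, 1454984_at exceeded 1450207_at by 3.25, 3.01 and 3.98 log2 units, a mean of 3.41 (SE 0.27), or 10.6-fold between the readings (limma on within-gene differences, two-sided, adjusted p = 0.00328). It exceeded 1425107_a_at by a mean of 3.37 units (SE 0.28; 95% interval 2.52 to 4.22; adjusted p = 0.00364), again most on replicate 3. The remaining pair differed by 0.04 units (95% interval -0.42 to 0.50; adjusted p = 0.839), so these neighbours in the order of Lifr readings did not differ beyond their spread. Since the dim sets were not above background, these differences are between readings, and no exact ratio of specific signals. They also include how well each set of probes binds and are no measure of transcript amount.

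Replicate 3 separated the Lifr probe sets further. There the bright set was highest of the 3 arrays while the dim sets were lowest. On the log2 scale the bright set had an SD between arrays of 0.33, against a median of 0.12 for the probe sets in the same decile of mean signal, and 4.01% of those had a larger one. The dim sets, with SDs of 0.22 each, varied less than the median of 0.37 at their signal. Without replicate 3 the gap was 3.13 units (adjusted p = 0.0206), and without replicate 1 or replicate 2 it was 3.50 and 3.62 (0.0251 and 0.0209).

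**Figure D2:**
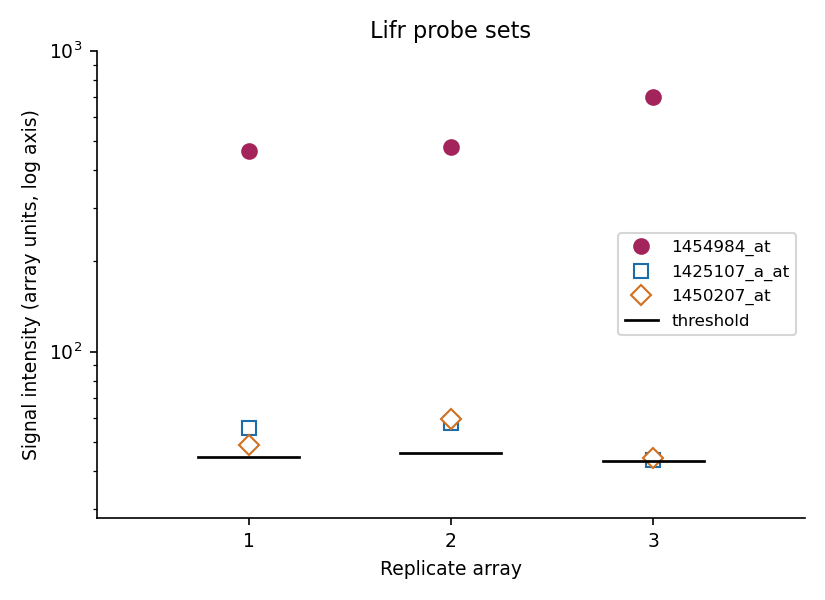
Signal intensity (log axis) of the 3 Lifr probe sets on each replicate array, with the array's threshold as a black bar. Probe set 1454984_at lies between 465 and 699, and both other sets lie between 43.6 and 59.7, close over the bars.

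Unlike readings for probe sets of 1 gene were common on these arrays. Of 30355 within-gene pairs of named genes, 61.7% differed by the same test, and of the members' 27 pairs 18 did. The gap between the brightest and dimmest Lifr set, 3.41 log2 units as read, compares with a median of 2.77 over the 2366 genes with 3 probe sets, and 38.2% of those genes had a wider gap. Many such gaps run to readings under the threshold, which carry no order, so every reading under its array's threshold was also set to the threshold. The Lifr gap was then the same, all its readings being over the threshold, the median fell to 1.47 and 20.6% of genes were wider. Among the 1678 genes with at least 1 set above background, the median was then 2.29 and 29.1% were wider. A mix of probe sets that passed the test and sets that did not, as for Lifr, occurred in 46.3% of genes with 3 sets.

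**Figure D3:**
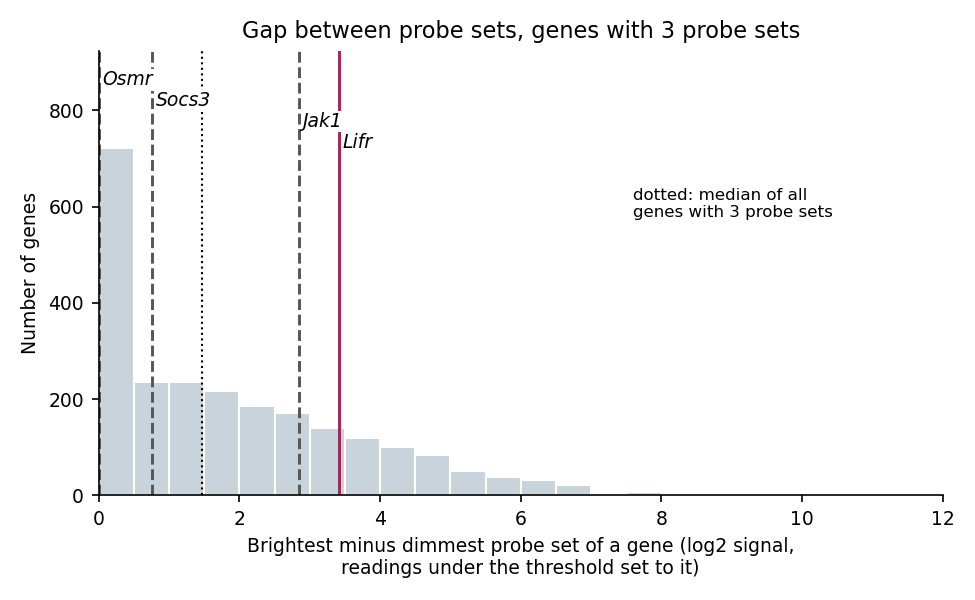
Number of genes by the gap between their brightest and dimmest probe set (log2 units), for the 2366 named genes with 3 probe sets, with each reading under the threshold set to it; lines mark Lifr (3.41), Jak1 (2.84), Socs3 (0.76) and Osmr (0, no set over the threshold), and the dotted line the median (1.47). Lifr and Jak1 lie above the median and Socs3 and Osmr below it, and the gaps shown for genes with readings at the threshold are lower bounds.

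Il6st, which encodes gp130, was above background on 4 of 4 probe sets, though their readings differed. By limma's within-gene test every pair of them differed except 1437303_at and 1421239_at (0.19 log2 units, adjusted p = 0.334). Probe set 1452843_at read 485, 404 and 432, a mean of 440 ± 40.7 and 3.30 log2 units over the threshold (SE 0.13; limma adjusted p = 0.000216). The other sets averaged 251 ± 22.2, 143 ± 20.4 and 125 ± 17.3, and the lowest of them stood 1.48 units over the threshold (adjusted p = 0.00253). The gap of 1.82 units between the extreme sets compares with a median of 2.16 for the 1092 genes with 4 probe sets. Readings under the threshold were set to it, and 55.3% of those genes had a wider gap. Among the 838 with at least 1 set above background, the median was 2.81 and 72.1% were wider. The call therefore does not depend on which Il6st probe set is read.

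Osmr, the chain that pairs with gp130 to bind oncostatin M, was not above background on any of its 3 probe sets. Its brightest set, 1459217_at, read 42.9, 30.5 and 17.9, each under the threshold, with a mean of -0.64 log2 units relative to it (SE 0.30). The others averaged 8.25 ± 6.41 and 5.74 ± 1.39. By limma 0 of the 3 sets had an unadjusted p under 0.05, and 0 were over the threshold on all arrays. Of the receptor chains among the members, the LIF-binding chain and gp130 were thus detected and the oncostatin M chain was not.

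The Janus kinase genes were all above background, by 1 or more probe sets each. Jak1, the kinase most tied to gp130 signalling, passed on 3 of 3 probe sets. Set 1433805_at read 542, 526 and 478 (mean 515 ± 33.0, 3.53 log2 units over the threshold, SE 0.11; limma adjusted p = 0.000149), and 1433803_at averaged 209 ± 25.8. The dimmest, 1433804_at, read 58.7, 82.9 and 75.8, at 0.69 units (adjusted p = 0.0243), and that call was lost without replicate 2 (0.112) or replicate 3 (0.111).

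Jak2, the kinase of the erythropoietin and growth hormone receptors that also binds gp130, passed on 1 of 2 sets. Set 1421066_at read 130, 171 and 104 (mean 135 ± 33.5, 1.57 units over the threshold, SE 0.17; adjusted p = 0.00338), while 1421065_at read 50.5, 31.6 and 28.4 and exceeded the threshold on replicate 1 alone. As read, the sets differed by 1.89 log2 units (SE 0.28; adjusted p = 0.0115); with readings under the threshold set to it, the difference was 1.51, a lower bound. Tyk2, which serves interferon and gp130 receptors, showed the same division. Set 1417306_at read 174, 186 and 164 (mean 175 ± 10.6, 1.97 units, SE 0.11; adjusted p = 0.000467), and 1432576_at read 26.3, 66.7 and 30.1, over the threshold on replicate 2 alone.

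Jak3, known as the kinase of the common gamma chain in lymphocytes, was read by a single probe set, 1425750_a_at, at 86.2, 82.9 and 76.8. The mean of 82.0 ± 4.75 lay 0.88 log2 units over the threshold (SE 0.11; limma adjusted p = 0.00462), and the arrays varied little, 1.12-fold from lowest to highest. The call remained with any 1 replicate left out (adjusted p from 0.0295 to 0.0404) and was lost with the threshold at the 99th percentile (0.0995), within a range of 0.000469 to 0.0995 over 14 alternatives. Of the blood markers, the pan-leukocyte gene Ptprc read 15.2, 3.12 and 13.6 and the T cell gene Cd3e 6.92, 7.12 and 7.56, all under the threshold. Cd68, a macrophage gene also expressed elsewhere, was the 1 of 4 measured blood markers called (79.5 ± 5.38). The 4 markers summed to between 105 and 116 on the arrays, and their part in the Jak3 reading was not tested.

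Stat3, the transcription factor activated by the receptor complex, was above background on 2 of its 4 probe sets. The gene's call was lost with the median over its sets (0.84 log2 units; limma adjusted p = 0.0779) and it stood at -0.29 units when read by the set preferred by suffix. Set 1426587_a_at was the steadiest member reading, at 252, 236 and 235 (mean 241 ± 9.46, 2.44 log2 units over the threshold, SE 0.11; limma adjusted p = 0.000306). Set 1460700_at read 187, 191 and 150 (mean 176 ± 22.8; adjusted p = 0.000728). These brighter sets differed by 0.46 units (95% interval -0.02 to 0.95; adjusted p = 0.0836), within the spread between arrays.

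The dimmer Stat3 sets gave no stable reading. Set 1424272_at read 91.1, 14.9 and 35.5, over the threshold on replicate 1 alone, and its 6.10-fold range was exceeded by few probe sets: 0.931% of those in its decile of mean signal had a larger SD. Set 1459961_a_at read 1.31, 4.30 and 14.4. With readings under the threshold set to it, the brightest set exceeded this one by 2.44 log2 units, a lower bound. The median gap over genes with 4 sets was 2.16, and 44.6% of them had a wider one. Among the 838 with at least 1 set above background, as for Stat3, the median was 2.81 and 58.1% were wider.

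Socs3, the inhibitor induced by Stat3 that blocks gp130 and the kinases bound to it, was near the limit of detection. Set 1455899_x_at read 73.1, 60.6 and 96.9 (mean 76.9 ± 18.4), over the threshold on all 3 arrays by 0.76 log2 units on average (SE 0.20; limma adjusted p = 0.0394). The call was lost without any 1 replicate: the adjusted p was 0.134 without replicate 1, 0.0539 without replicate 2 and 0.103 without replicate 3, and over 15 alternatives it ran from 0.00477 to 1. Set 1456212_x_at read 45.7, 39.0 and 61.0 and did not pass (0.10 units; adjusted p = 0.746).

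The _x_at suffix of those sets marks probes that can also bind other transcripts. They moved in parallel, the first exceeding the other by 0.68, 0.64 and 0.67 log2 units on the 3 arrays, both with their highest value on replicate 3. The remaining set, 1416576_at, with no such suffix, read 17.3, 39.6 and 14.1, under the threshold on every array, so its readings carry no order. Socs3 thus rests on 1 of 3 probe sets.

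The genes around the members were taken from 7 lists, of which 67 of 78 genes were read by a probe set of their own and 41 were above background (61.2%, beside 51.1% of all named genes). Among the other ligands of the interleukin-6 family 1 of 6 passed. Il6 averaged 1.62 ± 0.43, Il11 6.34 ± 2.63 and Osm, oncostatin M, 32.0 ± 10.4, all below the threshold. Ctf1, cardiotrophin-1, which also signals through Lifr, was the one called, at 72.2, 96.3 and 55.2 (0.71 log2 units; limma adjusted p = 0.0404). That call too was lost without any 1 replicate (0.144, 0.127 and 0.0501 without replicates 1, 2 and 3).

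Of the other receptor subunits of the family 0 of 4 measured passed limma's test, 0 had an unadjusted p under 0.05, and 0 were over the threshold on all 3 arrays. Il6ra, the interleukin-6 receptor, averaged 54.6 ± 15.2, and Cntfr, the chain for ciliary neurotrophic factor, 63.8 ± 17.3. Il27ra and Il31ra were far under the threshold on every array. Cntfr passed without replicate 2 (0.75 log2 units; adjusted p = 0.0462), where replicate 2 itself read 43.8 beside 72.9 and 74.6. Of the subunits of this family that were measured, those detected were the chains of the LIF receptor, Lifr and Il6st.

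Of the other Stat genes 3 of 5 passed. Stat4 stood at 133 ± 30.6 and Stat2, which acts in interferon signalling, at 66.7 ± 5.39 (0.58 log2 units; limma adjusted p = 0.0234), a call lost when read by the set preferred by suffix (-1.37 units) and without any 1 replicate (0.112, 0.063 and 0.093 without replicates 1, 2 and 3). Stat6, named after its value was seen, was the remaining one at 260 ± 22.8. Stat5a (45.1 ± 10.8) and Stat5b (54.6 ± 7.77), which serve growth hormone and many cytokine receptors, did not pass.

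Negative regulators were above background in 14 of 16 cases (87.5%), with a list median of 2.67 log2 units. Socs2, an inhibitor of growth hormone signalling, averaged 513 ± 23.3, Socs4 252 ± 30.1 and Socs5 212 ± 18.3. Socs1, the close relative of Socs3 that interferon induces, was not called and read 41.1, 13.2 and 4.40, under the threshold on every array. The other exception was the phosphatase gene Ptprc, a blood marker given above. Read by the set preferred by suffix, Socs2 stood at -0.75 units.

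Genes known as Stat3 targets in embryonic stem cells were above background in 10 of 12 cases (83.3%), with a list median of 4.38 log2 units. Klf4, a Krüppel-like pluripotency factor, read 1158, 1168 and 1040, and Tfcp2l1, a transcription factor that can stand in for LIF, 3830, 3824 and 3683. The latter rests on 1 of 3 probe sets, and the median over its sets lay at -2.08 units. Gbx2, a homeobox gene, averaged 292 ± 66.9 and the kinase gene Pim1 336 ± 26.4. Junb (49.2 ± 8.64; 0.13 units, adjusted p = 0.493) and Pramel7 (14.6 ± 8.75) did not pass. Most of these genes are also under the control of other factors, and no array without LIF signalling was measured.

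Genes of the MAP kinase and PI3 kinase arms, which the same receptor feeds through the phosphatase Shp2, were above background in 10 of 10 measured cases, with 4 listed genes not read by a probe set of their own. Ptpn11, which encodes Shp2, averaged 866 ± 13.5, and the adaptors Grb2 552 ± 17.2 and Gab1 1717 ± 128. The exchange factor gene Sos1 stood at 347 ± 54.8. Read by the set preferred by suffix, Ptpn11 lay at -0.24 log2 units and Sos1 and Pik3r1 lost their calls (limma adjusted p = 0.0956 and 0.0605). With the median over a gene's sets, Sos1 lay at -0.74 units, and Ptpn11 (0.0717) and Pik3r1 (0.0676) lost their calls. Pik3r1, which averaged 118 ± 30.7, also lost its call without replicate 2 (0.0559).

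Other receptors that use Janus kinases were above background in 3 of 13 cases (23.1%), with a list median of -0.83 log2 units. The 3 were interferon receptor chains, Ifnar1 (214 ± 18.6), Ifngr1 (112 ± 19.5) and Ifnar2 (96.6 ± 15.0). Read by the set preferred by suffix, Ifnar1 and Ifnar2 lay at -0.60 and -1.83 units. Ifngr2, the partner of Ifngr1, read 7.49, 30.0 and 29.4 and did not pass. The erythropoietin, growth hormone, leptin and interleukin receptor genes measured did not pass either. Il10rb (65.4 ± 15.7) missed narrowly (adjusted p = 0.0775) and passed without replicate 3 (0.0421).

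**Figure D4:**
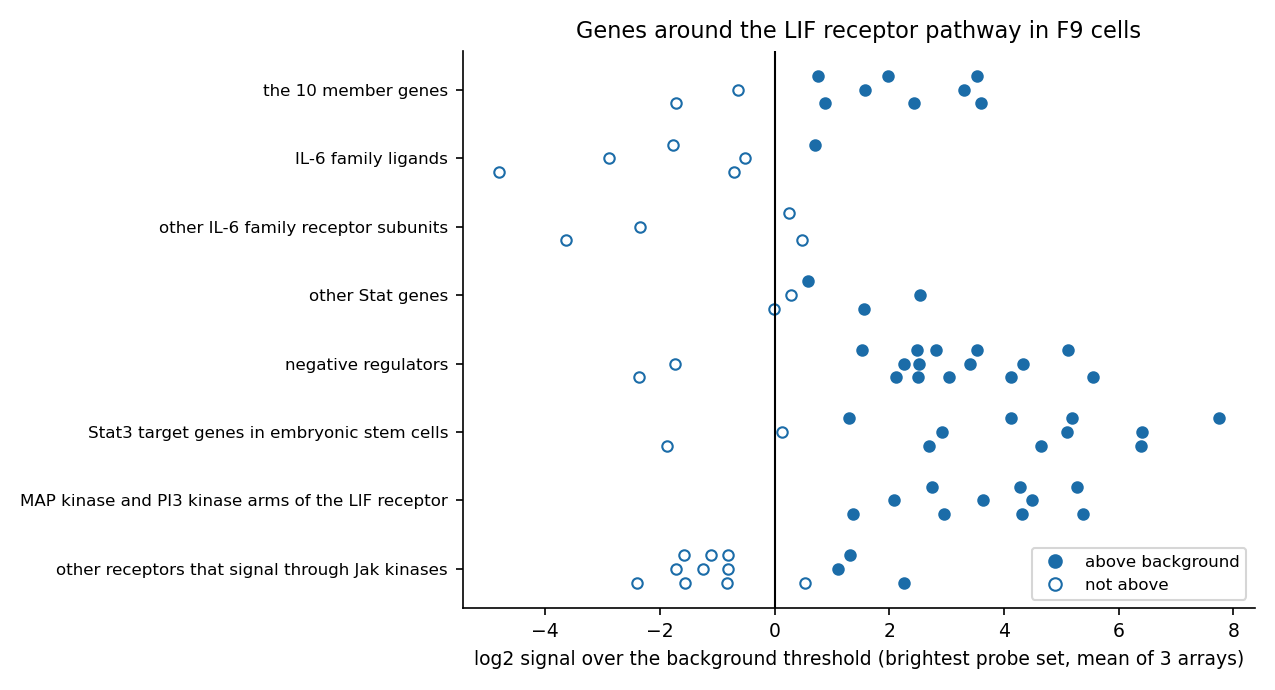
Log2 signal over the background threshold for each gene's brightest probe set (mean of 3 arrays), for the 10 member genes and the 7 pathway lists; filled points were above background. Negative regulators, Stat3 targets and the MAP kinase and PI3 kinase list lie mostly to the right of 0, and ligands, other family receptors and other Janus kinase receptors mostly to the left.

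The markers of the labelled cell type were present, with 8 of 8 pluripotent genes above background and a summed signal of 48843 to 50907 on the arrays. Of 8 fibroblast or feeder markers 1 passed (Thy1, 105 ± 17.3), with sums of 253 to 279, and the collagen genes Col1a1, Col1a2 and Col3a1 were under the threshold on average. Of 6 extraembryonic endoderm markers 0 passed limma's adjusted test, 2 had an unadjusted p under 0.05 and 2 were over the threshold on all arrays, with sums of 232 to 320. Those 2 were Gata6 (57.5 ± 3.95, limma adjusted p = 0.0501) and Sox17 (69.7 ± 18.6, limma adjusted p = 0.0724), which missed narrowly. The 2% trimmed mean signal was 250.002 on each array as deposited, which the scaling fixes, and median signals ran from 36.0 to 37.8.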

How the data were processed

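Each sample was read on 1 Affymetrix Mouse Genome 430 2.0 array. The deposited values are linear signal intensities, 1 for each of 45101 probe sets. The authors used GCOS 1.4, per the submitters' processing notes; the signal algorithm is not given in the sources used here. Equal trimmed means (2% cut from each end) show that arrays had been scaled, which hides changes in total RNA. No further normalization was applied.

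Probe sets were named from a 2016 platform annotation. Background came from 129 probe sets of 115 genes (symbols starting Olfr, Vmn1r, Vmn2r, Tas1r, Tas2r or Krtap). For every probe set the log2 ratio of signal to threshold was computed per array and tested above 0 using limma 3.58.1 (R 4.3.3; lmFit and eBayes, one-sided; p-values of all probe sets adjusted together by Benjamini-Hochberg). Within-gene log2 differences were tested two-sided, adjusted over 30355 pairs. Both fits were also run on simulated data with independent noise, and no result given here rests on that run.

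Named were all members, the first 4 measured genes of each list and up to 3 whose call differed from most of it; others are marked or stand for a count or a replicate-dependent call. The members and lists were chosen with earlier results of these data known. Alternatives were other percentiles (90th, 99th), background families, normalization, a pseudocount of 16, filters, variance prior, choice of probe set and leaving out each replicate. The labels do not say whether the samples were separate cultures, so p-values reflect only how these 3 samples vary, possibly for technical reasons. With 3 arrays, precision is limited by their number.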

Additional observations from a re-analysis of the deposited data

How the results depend on the processing

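Of 159 readings of a member gene under 16 alternatives, 141 kept their call, 10 stayed above the threshold without passing the test and 8 fell below it. The count of 8 member genes fell to 4 with the probe set preferred by suffix and to 5 with the median over a gene's probe sets. It fell to 3 (Il6st, Jak1 and Jak3) when all probe sets had to pass. Under that rule 5662 of all named genes and 21 of the pathway list genes passed. With the 99th percentile the count was 6 (8375 of all named genes), and Jak3 and Socs3 lost their calls (limma adjusted p = 0.0995 and 0.331). Without the suffixed probe sets it was also 6 (7741 of all named genes). By suffix, Jak2 lay at -0.32, Stat3 at -0.29 and Socs3 at -1.07 log2 units. Socs3 lay there also without the _s_at, _x_at and _a_at probe sets, where Jak3 has none left. By the dimmest set, Jak2 and Socs3 were the same, Stat3 lay at -3.36 and Tyk2 at -0.25. By suffix Lifr stood at 0.18. All 3 Lifr probe sets passed with the 90th percentile, and all 3 were over the threshold on every array. Without the suffixed sets 1 Lifr pair and 10 member pairs differed, since fewer pairs were left. With 1 replicate left out, 7 member genes and 12 to 13 of their probe sets passed, and 10 to 13 member pairs differed, the fewest without replicate 3. Calls were lost in general there: 8708, 8767 and 8785 of all named genes passed without replicates 1, 2 and 3, beside 9240 with all arrays. With readings under the threshold set to it, an alternative chosen after seeing the data, 19 member pairs differed. That alternative kept only pairs with at least 1 probe set over the threshold on all 3 arrays, 20960 of 30355 over all genes. It tested fewer member pairs than the main fit, so the count is not on the base of 18 of 27. Shares over all probe sets and all pairs are not given for the alternatives, so these member counts cannot be set against them. The Lifr gap ran from 3.06 (pseudocount) to 3.62. No paired analysis was possible because there is 1 group. Signal over background is the limit: readings under the threshold carry no order. Lif and Osmr were not called under any of the 16 alternatives.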
